A study of Mus musculus with 6 samples.

Results

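Processed pseudogenes are copies of spliced messenger RNAs that were written back into the genome by reverse transcription. They lack the introns of the gene they came from, usually lack its promoter, and collect substitutions as they age. Genes with abundant, broadly expressed messages, above all those of ribosomal proteins and of the glycolytic enzyme GAPDH, have left many copies. Because a recent copy is almost the same in sequence as its source gene, a short read from one can match the other, and a count given to such a pseudogene is not by itself evidence that its locus was transcribed.

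The 200 processed pseudogenes described here were selected on level. They are the rows of the deposited liver RNA-seq table that carry the type processed_pseudogene, leaving out names that start with Mup, with the highest mean FPKM over the 6 libraries. FPKM divides the fragments assigned to a gene by its transcript length and by the size of the library. They came from 3329 such pseudogenes among 28880 genes. Levels were compared between the livers of 3 ethanol-exposed and 3 control mice, all male wild type C57BL/6J animals aged 6 to 8 weeks. The ethanol group was fasted for 12 h and then was given ethanol by mouth in 1 dose (6 g/kg, as a 50% solution), with livers taken after 24 h. Control mice were kept without ethanol, and since the labels do not say whether they were fasted, ethanol and fasting cannot be told apart. All 6 libraries carry the same batch label. Each library is 1 mouse.

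Counts per library summed to between 60514417 and 74210869, and every one of the 200 pseudogenes passed the filter on low counts, with at least 13 counts in each library. Because their levels chose them, the levels below are a description. At the edge of the selection, Gm4786 (mean FPKM 4.38), Gm6807 (4.37) and Gm8941 (4.35) were the last taken, and Gm10145 (4.30), Hspd1-ps3 (4.27) and Pgk1-rs7 (4.26) were the first left out. Ranking by one group alone would have kept 185 of the 200 with the control libraries and 189 with the ethanol libraries. All 6 hepatocyte markers checked (Alb, Apoa1, Ttr, Serpina1c, Cps1, Fabp1) were tested, and 1 was called higher by the thresholds given below. Their summed levels were 123348 to 125607 CPM in ethanol and 68414 to 79954 CPM in control livers. CPM are scaled here with TMM factors, which were 0.768 to 0.836 for ethanol and 1.26 to 1.27 for control libraries. The sums therefore depend on that scaling. In the ethanol livers, summed neutrophil markers were 1.77 to 10.8 CPM against 0.118 to 0.330 CPM in controls, cholangiocyte markers 33.8 to 39.6 against 6.87 to 10.3 CPM, and erythroid markers 403 to 600 against 142 to 175 CPM. Lower without overlap in ethanol livers were the sums of nuclear RNAs, at 183 to 309 against 397 to 529 CPM, and of markers of Kupffer cells (65.7 to 88.2 against 89.8 to 94.1 CPM), B cells (2.69 to 3.50 against 4.36 to 5.54 CPM) and T cells (0 to 0.403 against 0.735 to 0.970 CPM). A sum can rest on 1 gene of its list. Called higher were 3 of 3 neutrophil, 1 of 4 cholangiocyte and 2 of 3 erythroid markers tested. Of 3 nuclear RNAs, 1 was called higher and 1 lower. Called lower was 1 of 4 B cell markers, and none of 5 Kupffer cell or 3 T cell markers tested was called. The part of these shifts in the values below was not tested. In bulk tissue, fewer cells of a type and less RNA per cell cannot be told apart.

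Most of the selected pseudogenes were near-perfect copies. Each transcript sequence from GENCODE M21 was aligned to all protein-coding transcripts of genes in the table, and every one of the 200 had a match that met the minimum of 80% identity over 50% of its length. The best match is called its coding gene here. Median identity was 99.64% (quartiles 99.2% and 99.9%), and 44 were 100% identical over the aligned stretch. Of the next 200 by level, 22 were 100% identical and median identity was 99.03%. Among the 2929 ranked below 400, 2873 had any match, with a median identity of 94.82%. In 11 cases a second protein-coding gene matched equally well. Of the 150-base stretches of these transcripts, which is the length of 1 read, a median of 63.6% occurred exactly in a protein-coding transcript. All such stretches did so in 42 pseudogenes and none did in 13, over the 199 long enough to hold one. How fragments that match several places were counted is not given in the sources used here.

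**Figure D1:**
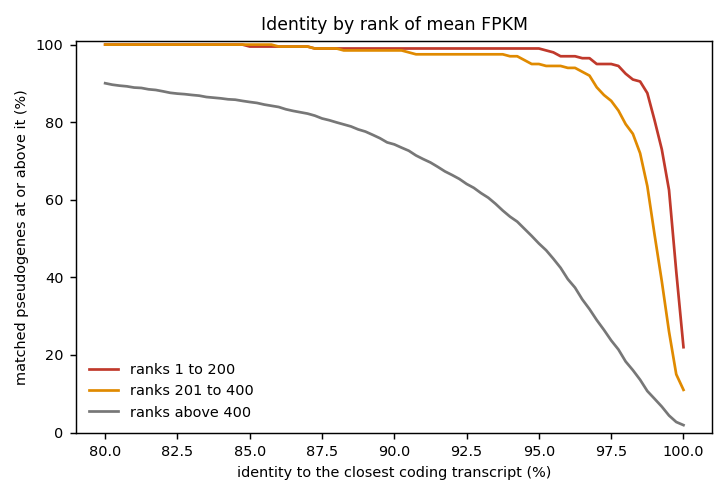
Share of processed pseudogenes (%, vertical axis) whose best match to a protein-coding transcript is at or above the identity on the horizontal axis (%), for the 200 highest, the next 200 and all further ranks by mean FPKM, among those with a match. At 99% identity the 200 selected pseudogenes are at 80.5%, the next 200 at 51% and all further ranks at 8.70%, and at 100% the selected ones are at 22%.

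The sequences of 7 pseudogenes that carry the results below are shown as 120-base windows, each free of alignment gaps and inside the stretch that corresponds to the coding sequence of the coding gene, chosen among such windows as the one with most differences from it. Capitals mark bases that differ between a pseudogene and its coding gene, and positions are GRCm38 from GENCODE M21, with sequences written 5′ to 3′ on the strand of the transcript. The first set shows copies that cannot be told from their coding gene. Idi1-ps1 (chr2:53696685-53696804, minus strand) and exon 2 of Idi1 (chr13:8886763-8886882, plus strand) share one sequence, as do Gm8783 (chr19:40622658-40622777, plus strand), Gm15801 (chr19:40560741-40560860, minus strand) and exon 4 of Ptp4a1 (chr1:30944547-30944666, minus strand).
Idi1-ps1 and Idi1: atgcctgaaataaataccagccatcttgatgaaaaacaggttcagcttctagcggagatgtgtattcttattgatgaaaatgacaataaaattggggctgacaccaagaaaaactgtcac
Gm8783, Gm15801 and Ptp4a1: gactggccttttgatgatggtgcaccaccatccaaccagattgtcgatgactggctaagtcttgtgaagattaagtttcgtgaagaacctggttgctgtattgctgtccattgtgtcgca

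The second set shows copies that differ at scattered bases. Gm3571 (chr10:93778801-93778920, plus strand) and exon 3 of Fdps (chr3:89099321-89099440, minus strand) differ at 3 bases of this window, and Gm12966 (chr4:129899644-129899763, plus strand) and exon 8 of Srsf5 (chr12:80949720-80949839, plus strand) also differ at 3.
Gm3571: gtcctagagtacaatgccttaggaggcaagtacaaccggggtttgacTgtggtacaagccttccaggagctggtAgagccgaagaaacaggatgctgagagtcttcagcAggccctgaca
Fdps: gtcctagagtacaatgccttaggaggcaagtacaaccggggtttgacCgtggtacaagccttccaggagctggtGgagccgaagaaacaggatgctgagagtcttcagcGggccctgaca
Gm12966: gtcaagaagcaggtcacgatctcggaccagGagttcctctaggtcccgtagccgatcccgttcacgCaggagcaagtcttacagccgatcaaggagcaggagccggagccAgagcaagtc
Srsf5: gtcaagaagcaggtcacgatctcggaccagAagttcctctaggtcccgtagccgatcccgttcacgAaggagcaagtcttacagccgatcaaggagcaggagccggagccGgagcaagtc

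The third set shows old, diverged copies. Gm8941 (chr1:151136647-151136766, plus strand, in the first of 2 annotated exons) differs from Gapdh (chr6:125162984-125163201, minus strand, spanning exons 3 and 4) at 22 of these bases, while Gm12671 holds the Gapdh window unchanged. Gm4240 (chr14:70302259-70302378, plus strand, in the first of 2 annotated exons) differs from the coding sequence of Rpl17 at the 9 bases in capitals, while its whole alignment holds 57 mismatches and 9 gaps and so differs more than this gap-free window.
Gm8941: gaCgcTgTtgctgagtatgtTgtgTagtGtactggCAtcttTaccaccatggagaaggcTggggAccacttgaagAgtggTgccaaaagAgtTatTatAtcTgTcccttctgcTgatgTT
Gapdh and Gm12671: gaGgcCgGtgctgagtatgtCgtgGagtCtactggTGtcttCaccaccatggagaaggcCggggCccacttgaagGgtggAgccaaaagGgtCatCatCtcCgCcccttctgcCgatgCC
Gm4240: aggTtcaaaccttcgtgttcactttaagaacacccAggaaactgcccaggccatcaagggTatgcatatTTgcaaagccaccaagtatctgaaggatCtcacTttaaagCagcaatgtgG

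Classes of coding genes were unequal in size. In 85 the best match was a cytosolic ribosomal protein gene and in 20 a glycolytic one, followed by oxidative phosphorylation with 11, RNA binding and splicing with 9, proteasome and ubiquitin with 7, translation factors with 5, chromatin with 4, liver secretory and metabolic genes with 3, and chaperones and protein folding with 3. Ferritin and the mitochondrial ribosome had 2 each and the cytoskeleton 1, and the other 48 fell in no listed class. In all, 134 coding genes stood behind the 200, and 28 of them had more than 1 copy among these, covering 94 pseudogenes. Gapdh had 19 copies, Rpl17 and Rpl7a 6 each, and Rpl21 had 5. The name itself gives a coding gene found once in the table for 61, and in 58 of those it was also the best match by sequence. They lie on 21 chromosomes, 13 on X and 1 on Y, and 67 overlap another gene of the table on either strand.

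Levels ran from 4.35 to 409 FPKM. Highest was Gm5424, a copy of Ass1 (argininosuccinate synthase of the urea cycle, 99.5% identity), with 342, 390 and 372 FPKM in ethanol and 556, 423 and 374 FPKM in control livers. Its fitted log2 fold change was 0.38 with TMM factors (SE 0.16, edgeR adjusted p = 0.094) and -0.29 with library size alone, not called in either. Next came Gm10123, a 100% match to Ppia (cyclophilin A, a peptidyl-prolyl isomerase), with 390, 188 and 229 FPKM in ethanol and 63.9, 307 and 126 FPKM in control livers. The libraries of the groups overlapped for Gm10123. Its highest value was in ethanol replicate 1, and control replicate 2 was above the other two ethanol libraries. The other 8 of the top 10 had mean FPKM of 155 for Mpc1-ps (mitochondrial pyruvate carrier subunit), 145 for Rpl17-ps10, 138 for Gstp-ps (glutathione S-transferase pi), 135 for Gm7336, 128 for Gm5559 and 116 for Gm12671 (all 3 Gapdh), and 109 for Rpl7a-ps11 and 108 for Gm8226 (both Rpl7a).

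In 66 of the 200 the mean FPKM of the pseudogene was above that of its coding gene, while 27 had a coding gene at least 10 times higher. Gapdh stood out by its own low value. The gene was listed at a mean of 6.12 FPKM, below 17 of its 19 copies, whose means ranged from 4.35 to 135 FPKM and summed to 1146 FPKM. Rpl21, at 3.54 FPKM, was below all 5 of its copies (13.0 to 43.7 FPKM), and Hmgb1, a chromatin protein, at 6.87 FPKM was below all 4 (8.50 to 26.6 FPKM). The reverse order held for Rps2, at 252 FPKM against 5.46 to 8.76 FPKM in 4 copies, and for Rpl23a, at 88.7 FPKM against 6.66 to 24.9 FPKM in 4. Exact copies were not always the higher ones. Over the 44 that were 100% identical the median level was 53.6% of the coding gene, against 61.2% over the 117 between 99% and 100% and 16.5% over the 38 below 99%.

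**Figure D2:**
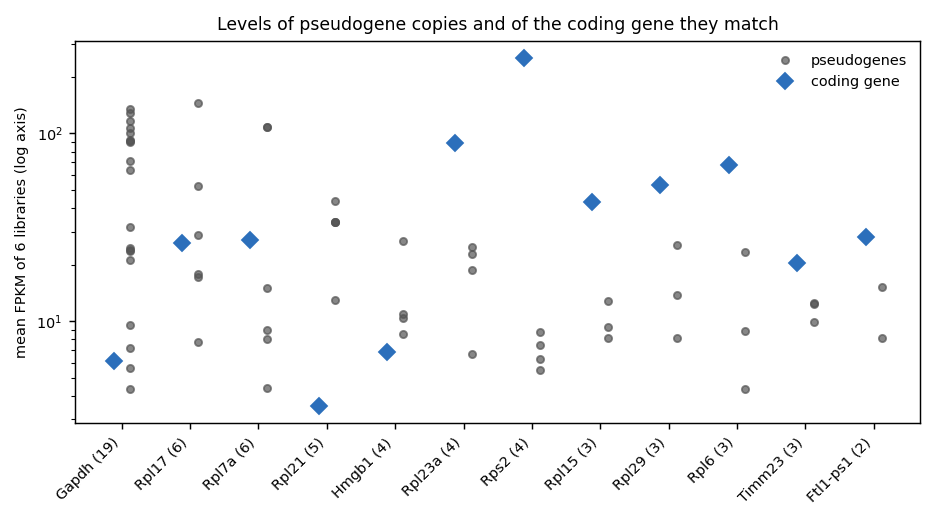
Mean FPKM of 6 libraries (vertical log axis) for the 12 coding genes with most copies among the 200, as diamonds, and for each copy, as points, with the number of copies in parentheses. Gapdh, Rpl21 and Hmgb1 sit below most or all of their copies, and Rps2 and Rpl23a above all of theirs.

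For the comparison of ethanol with control livers, counts were tested with edgeR's quasi-likelihood test over 16717 genes, and fold changes are log2 of ethanol over control from that fit. CPM are counts scaled to a common library size with TMM factors. Calls needed both an absolute log2 fold change above 1 and significance at 0.05 after Benjamini-Hochberg adjustment. Of the 200 pseudogenes, 32 (16.0%) were called higher in ethanol livers, against 10.4% of all genes tested, and 4 were called lower, against 13.8%. Their median log2 fold change was 0.64, that of all genes tested was -0.04 and that of the 133 tested coding genes behind them was 0.66. The other processed pseudogenes that were tested, 811 in number, had a median of 0.46, with 80 called higher and 36 lower. At adjusted p alone, 114 of the 200 were higher and 8 lower, against 21.5% of all genes in each direction. CPM of the groups did not overlap for 153 of the 200, against 59.0% of all genes tested. Scaling decides the sign of small changes here. With library size alone in place of TMM factors, the median of all genes moved to -0.71, that of the 200 to -0.03, and the calls to 6 higher (3.0%, against 5.06% of all genes) and 13 lower (6.5%, against 32.2%). The distance between the 200 and all genes was 0.68 in both. With the trend in transcript length removed it was 0.36, and 16 were called higher (8.0%, against 12.5%). The share called higher was thus above that of all genes with TMM factors and below it in these alternatives.

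Ranking on the mean of both groups lets in genes that are high in one of them. Of the 32 called higher, 11 fell below rank 200 in the control libraries alone, and of the 4 called lower, 3 fell below rank 200 in the ethanol libraries alone. The former were Gm4240, Gm8783, Gm15801, Rps13-ps2, Rps13-ps1, Gm12966, Gm14494, Gm8129, Gm8186, Rps23-ps1 and Gm10036, and the latter Idi1-ps1, Gm8941 and Gm3571. These 14 entered through the group in which they are high, so their fold changes and ratios below are in part what selected them and are a description, and the adjusted p printed for them takes no account of it. Among the 174 within the top 200 of each group taken alone, 21 (12.1%) were called higher, against 10.4% of all genes, and 1 lower. Of the 200 highest in the control libraries alone, 21 (10.5%) were called higher, a share near that of all genes. The median log2 fold change of the 174 was 0.63.

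With TMM factors, copies of cytosolic ribosomal protein genes shared the direction of their fitted change. All 85 had a fitted log2 fold change above 0, with a median of 0.84 and a range of 0.26 to 5.25. Of the 85, 17 were called higher and 0 lower, against 10.4% and 13.8% of all genes. The 17 include Gm4240, at the top of the range, Rps13-ps2, Rps13-ps1, Gm8129 and Rps23-ps1, which entered through the ethanol libraries. At adjusted p alone, where 21.5% of all genes were higher and as large a share lower, 67 of the 85 were higher and 0 lower. With library size alone, 62 of the 85 stayed above 0 and the median was 0.17. The ribosomal protein genes themselves, 87 in the table, gave 16 called higher and 1 lower of 85 tested, with a median of 0.89. The one called lower was Rps23rg1 (log2 fold change -2.33), a related gene that the name rule let in. Over the 28 coding genes with more than 1 copy, ribosomal or not, the median span of log2 fold change among copies of one gene was 0.17, and it was over 1 for Gapdh, Rpl17, Rpl29 and Ube2v2. The 6 Rpl17 copies ranged from 0.91 to 5.25, the 3 Rpl29 copies from 0.26 to 1.31, the Rps13 pair from 1.99 to 2.70 and the Rpl38 pair from 1.36 to 2.06. Others lay closer together. The 5 Rpl21 copies ranged from 0.46 to 0.50 and Rpl21 itself changed by 0.62, the 4 Rpl23a copies ranged from 0.59 to 0.96 against 0.83, and the 4 Rps2 copies from 0.75 to 1.08 against 0.79. The 6 Rpl7a copies ranged from 0.77 to 0.97, whereas Rpl7a itself was at -0.01 (edgeR adjusted p = 0.983). Rpl7a had 31.5, 85.3 and 33.8 CPM in control and 48.8, 49.3 and 51.3 CPM in ethanol livers, and without the high control replicate 2 it was at 0.61 and its copies at 0.53 to 0.79. Of these families, Rpl17-ps10, a highly listed copy of a protein of the large subunit, had 128, 117 and 109 CPM in ethanol and 60.5, 61.9 and 66.3 CPM in control livers. Its log2 fold change of 0.91 (SE 0.10, edgeR adjusted p = 7.8e-04) stayed under the fold threshold. Rpl7a-ps11 was at 0.80 (SE 0.14) and likewise not called.

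**Figure D3:**
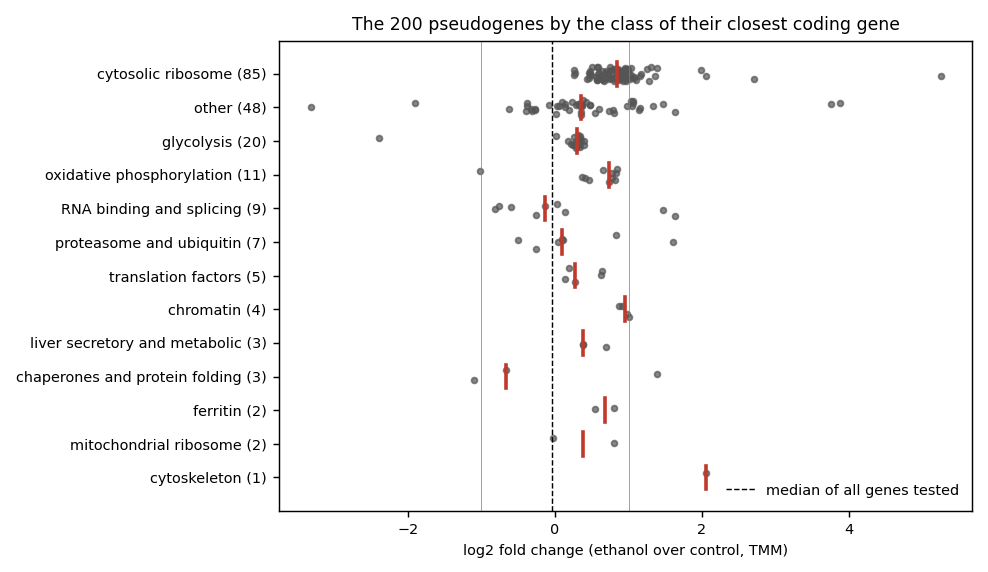
Log2 fold change of each of the 200 pseudogenes (horizontal axis, ethanol over control, TMM factors), grouped by the class of its coding gene with the number in parentheses. Red bars are class medians, grey lines mark the fold threshold and the dashed line is the median of all genes tested. All 85 ribosomal copies lie above 0. In the glycolytic class, 18 Gapdh copies form a tight cluster between 0.17 and 0.40, with the Gapdh copy Gm8941 apart.

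Of the 19 Gapdh copies, 18 had log2 fold changes between 0.17 and 0.40, a span of 0.23, and Gapdh itself was at 0.38 (SE 0.19, edgeR adjusted p = 0.137). None of these 18 was called. Their direction hangs on the scaling, since 18 of the 19 were above 0 with TMM factors and 0 of 19 with library size alone, where their median was -0.36. As a share of all counts, the 19 copies took 0.107%, 0.110% and 0.109% in ethanol and 0.142%, 0.144% and 0.143% in control livers, groups that did not overlap (exact permutation test, two-sided, p = 0.1, the smallest that 3 against 3 allows). Gapdh-ps15 (0.40), on the Y chromosome, and Gapdh-ps16 (0.37), for which the Gapdh-like Gapdhrt2 was one of the equally good matches, were the most abundant with the parent in the name, and both fell in the same narrow band. The nineteenth, Gm8941, the diverged copy shown above, fell and is described below.

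Among the smaller classes, all 4 Hmgb1 copies rose at adjusted p alone, from 0.87 (Hmgb1-ps2) to 1.01, beside 0.81 for Hmgb1. Of 11 oxidative phosphorylation copies, 5 were higher at adjusted p alone and none was called. Over all genes tested, 21.5% were higher at adjusted p alone and 10.4% were called higher. Ndufa12-ps, a copy of a complex I accessory subunit, was at 0.82 with an SE of 0.35. Copies of RNA binding and splicing genes split, with 2 called higher (Gm12966 and Gm8186) and a median of -0.14. Among them Gm11847, a copy of Hnrnpa3, was at -0.81 beside -0.74 for that gene, and Gm7964, a copy of Hnrnpk, was at -0.76 beside -0.09. Eif4a-ps4, from a translation initiation helicase, was at 0.14, Ftl2-ps, from ferritin light chain, at 0.55, Gstp-ps at 0.69 and Gstm2-ps1, from a glutathione S-transferase of the mu class, at 0.38, none of them called. Mpc1-ps (1.03, SE 0.14, edgeR adjusted p = 0.0014) and Tpt1-ps3 (1.05, SE 0.14, 0.0015), a 100% copy of the translationally controlled tumour protein gene, were called just over the fold threshold, but Mpc1-ps missed it without ethanol replicate 1 (0.98), ethanol replicate 2 (0.97) or control replicate 2 (0.98), and Tpt1-ps3 without ethanol replicate 1 (0.95). Both also missed it with the length trend removed (0.70 and 0.83) and with library size alone (0.37 and 0.39). Their coding genes were at 1.16 and 1.00.

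Of the 4 pseudogenes called lower, 3 fell together with their coding gene. Idi1-ps1 is an exact copy of Idi1, the isopentenyl-diphosphate isomerase of the cholesterol pathway. It had 1.13, 0.801 and 0.330 CPM in ethanol and 7.22, 7.15 and 8.27 CPM in control livers. Every ethanol value was below every control value, with a log2 fold change of -3.32 (SE 0.41, edgeR adjusted p = 0.0011), next to -3.27 (SE 0.18) for Idi1. Gm3571 is a copy of Fdps, the farnesyl diphosphate synthase that acts directly after that isomerase. Its 6.10, 4.56 and 3.65 CPM in ethanol stood against 17.7, 19.1 and 16.8 CPM in control livers. The groups were again apart, with a log2 fold change of -1.90 (SE 0.20, edgeR adjusted p = 6.3e-04) and -1.97 (SE 0.17) for Fdps. Gm15459 is a copy of Hspa8, the constitutive heat shock protein 70. It had 39.1, 40.0 and 68.2 CPM in ethanol and 97.2, 113 and 106 CPM in control livers. Its log2 fold change was -1.10 (SE 0.22, edgeR adjusted p = 0.0074), beside -1.03 for Hspa8, and it missed the fold threshold without ethanol replicate 1 (-0.97) or 2 (-0.98) and with the length trend removed (-0.998).

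Several pseudogenes with large rises had a coding gene with a like rise. Gm8783 and Gm15801, both on chromosome 19, are exact copies of Ptp4a1, a prenylated protein tyrosine phosphatase. Gm8783 had 27.8, 36.7 and 12.9 CPM in ethanol and 1.65, 1.67 and 1.94 CPM in control livers, and Gm15801 had 25.6, 34.2 and 12.3 CPM against 1.81, 1.72 and 1.81 CPM. The groups did not overlap in either, the ethanol libraries kept the same order in both, and the log2 fold changes were 3.88 (SE 0.39) and 3.75 (SE 0.37), with edgeR adjusted p of 4.7e-04 for each. Ptp4a1 has 2 rows in the table, at a mean of 99.9 and 4.75 FPKM, with log2 fold changes of 4.13 (SE 0.19) and 3.2 (SE 0.87). Gm8783 lies on the same strand within Entpd1, called higher at 1.39 (edgeR adjusted p = 0.013), and Gm15801 within Aldh18a1, at -0.91 (edgeR adjusted p = 0.085), and the part of these genes in the counts was not tested. Gm12715, a copy of Actg1 (cytoplasmic gamma actin), had 32.6, 26.1 and 12.4 CPM in ethanol and 6.03, 5.53 and 5.51 CPM in control livers. It rose by 2.06 (SE 0.33, edgeR adjusted p = 0.0029), beside 2.25 for Actg1. Gm9826, a copy of Ahcy (S-adenosylhomocysteine hydrolase of the methionine cycle), had 96.1, 98.4 and 92.2 CPM against 36.2, 30.4 and 25.6 CPM. It rose by 1.64 (SE 0.14, edgeR adjusted p = 2.9e-04) beside 1.92 for Ahcy, with an equally good match to the coding row Gm4737. Gm14494, a copy of the outer mitochondrial import receptor Tomm20, rose by 1.47 (SE 0.24, edgeR adjusted p = 0.0031) beside 1.28. With library size alone Gm9826 (0.97) and Gm14494 (0.80) missed the fold threshold.

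**Figure D4:**
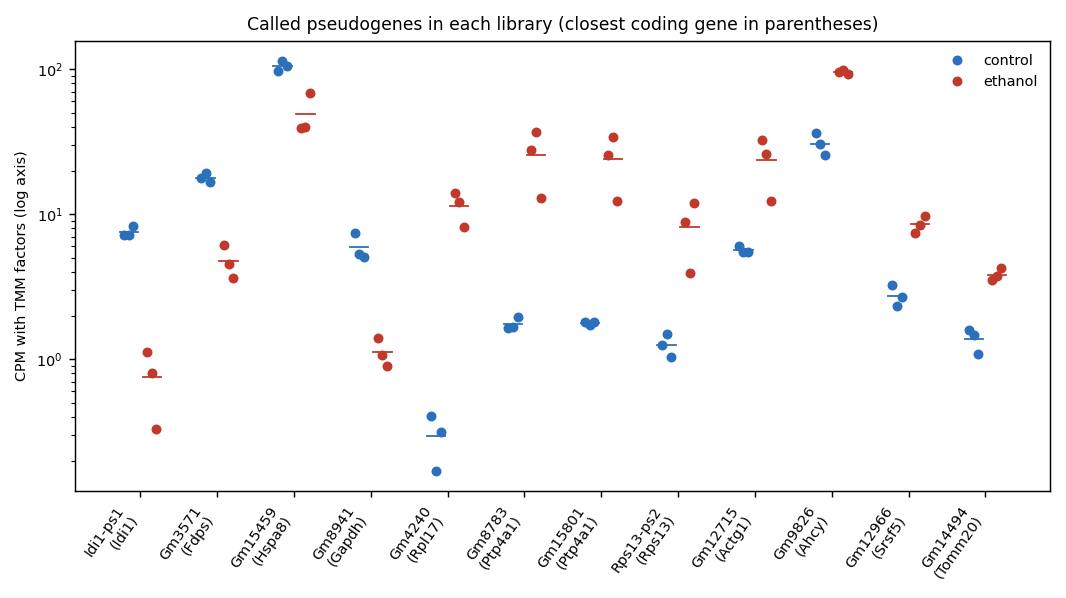
CPM with TMM factors (vertical log axis) of 12 called pseudogenes in each of the 3 control and 3 ethanol libraries, with the coding gene in parentheses and lines at group means. The 12, with 4 lower and 8 higher in ethanol livers, were chosen among called pseudogenes whose groups do not overlap. Their separation is thus a result of that choice. All but Gm15459, Gm12715 and Gm9826 also entered the selection through the group in which they are high.

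In other called pseudogenes the fitted rise was larger than that of the coding gene, though a test of the ratio to the coding gene over all 6 libraries did not call Rps13-ps2, Rps13-ps1, Gm8129 or Gm8186. Both Rps13 copies named for that small-subunit protein were among them, Rps13-ps2 with 8.86, 3.92 and 11.9 CPM in ethanol and 1.25, 1.5 and 1.04 CPM in control livers, and Rps13-ps1 with 7.65, 3.47 and 10.04 CPM against 1.56, 2.05 and 1.74 CPM. Ethanol replicate 2 was lowest in both, and the groups were apart. Their log2 fold changes were 2.70 (SE 0.42, edgeR adjusted p = 0.0024) and 1.99 (SE 0.39, 0.0063), while Rps13 rose by 0.72 (SE 0.10). Rps13-ps2 is 100% identical to its coding gene. Gm8129, a copy of Rpl38, was called at 2.06 (SE 0.60, edgeR adjusted p = 0.029) with groups that overlapped, and ethanol replicate 2, at 0.687 CPM, was under control replicate 1 at 0.693 CPM. Gm8186, an exact copy of the splicing protein gene Snrpg, was called at 1.47 (SE 0.41, edgeR adjusted p = 0.024) at 0.389 to 2.35 CPM. It was called in 6 of 14 alternative settings, and lost the call without ethanol replicate 1 or 2 or control replicate 1 or 3, with library size alone (0.81), with the length trend removed (1.05) and in both FPKM fits. Gm10123 was fitted at 1.38 with an SE of 0.56 and was not called (edgeR adjusted p = 0.085), beside -0.03 for Ppia, and it passed only without control replicate 2 (2.18).

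Whether a pseudogene moved differently from its coding gene was tested on the ratio of their counts within each library, which does not depend on the scaling. With coding genes taken from the name, limma on the log2 ratio called 0 of 61 pseudogenes, against 0.448% of the 223 pairs tested, and 2 had an unadjusted p under 0.05. The smallest adjusted p was 0.170, for Rps13-ps2, whose ratio rose by 1.85 (SE 0.45). Without ethanol replicate 2, both Rps13 copies were called. With coding genes taken from the sequence, a test added after the data were seen, 3 of 199 were called, against 1.84% of the 980 pairs tested, and 12 had an unadjusted p under 0.05. They were Gm4240, Gm8941 and Gm12966, all 3 among those that entered through 1 group. The calls were sensitive to the libraries used. Without ethanol replicate 1 Gm8941 alone remained, without control replicate 2 Gm12966 was lost, and none remained without control replicate 3 or with the replicate number as a block.

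Gm4240 had the largest rise of all 200. It is an 84.8% copy of Rpl17 that shares no 150-base stretch with any protein-coding transcript. It had 14.0, 12.2 and 8.19 CPM in ethanol and 0.405, 0.171 and 0.316 CPM in control livers, from 447 to 804 counts against 13 to 38. The groups were far apart, with a log2 fold change of 5.25 (SE 0.38), where Rpl17 rose by 1.23, and its log2 ratio to Rpl17 was 4.07 higher (SE 0.39). By level it ranked 653 in the control and 81 in the ethanol libraries, so the ethanol libraries alone brought it in. In the coordinates of the deposited table it lies on the plus strand of chromosome 14, from 70539656 to 70540388, and 530 bases further on is the end of Slc39a14, a zinc transporter gene read from the minus strand. Slc39a14 had 1834, 1690 and 1952 CPM in ethanol and 91.1, 81.5 and 77.9 CPM in control livers, a log2 fold change of 4.45 (SE 0.14, edgeR adjusted p = 1.6e-05). Its part in the value of Gm4240 was not tested, and the strand setting of the counting is not given in the sources used here.

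Gm8941 was set apart from the other Gapdh copies by the size of its fall, while the direction of those copies hangs on the scaling. It is 87.2% identical to Gapdh, shares no 150-base stretch with any protein-coding transcript and was last of the 200 by level. It had 1.41, 1.06 and 0.898 CPM in ethanol and 7.39, 5.32 and 5.09 CPM in control livers. The groups did not overlap, with a log2 fold change of -2.40 (SE 0.27) and a change of -2.80 (SE 0.25) in its log2 ratio to Gapdh. By level it ranked 134 in the control and 491 in the ethanol libraries, so the control libraries alone brought it in. On chromosome 1, where the table places it from 151012258 to 151013531 on the plus strand, the next gene on that strand, 254 bases further on, is C730036E19Rik. That gene had 2.36, 1.90 and 1.34 CPM in ethanol and 10.3, 8.60 and 9.53 CPM in control livers, with a log2 fold change of -2.34 (SE 0.24, edgeR adjusted p = 5.4e-04). The neighbours thus had like levels and like changes, and their relation was not tested.

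Gm12966 is a 99.01% copy of Srsf5, a serine and arginine rich splicing factor, with 23.9% of its 150-base stretches in a coding transcript. It had 7.39, 8.41 and 9.75 CPM in ethanol and 3.23, 2.32 and 2.67 CPM in control livers. All ethanol values were above all control values, and the log2 fold change was 1.63 (SE 0.20), while Srsf5 was at -0.03 (SE 0.14). Its ratio to Srsf5 was 1.68 higher on the log2 scale (SE 0.18), and it ranked 222 in the control and 137 in the ethanol libraries. With library size alone it was at 0.96 and missed the fold threshold. It overlaps no other gene of the table.

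Across the 199 pseudogenes whose coding gene was tested, the 2 log2 fold changes had a Pearson's r of 0.74 and a Spearman's rho of 0.70. This is a description across genes that share libraries, and in large part sequence. The absolute gap between them had a median of 0.16, was under 0.5 in 168 and over 1 in 10. By identity, the median gap was 0.19 for the 44 exact copies, 0.14 for the 117 between 99% and 100% and 0.15 for the 38 below 99%. Pearson's r over the same classes was 0.87, 0.76 and 0.55, and Spearman's rho was 0.57, 0.78 and 0.56, so only the former fell with identity. Among the 12 that share no 150-base stretch with a coding transcript, 4 had a gap over 1, against 3 of the 42 in which every stretch is shared. In between, it was 2 of 62 with under 50% of stretches shared and 1 of 82 with 50% or more. The 4 include Gm4240 and Gm8941, whose gaps are in part what selected them. Median gaps of the 12 and the 42 were 0.17 and 0.18. Of the 32 called higher, 17 had a coding gene that was called higher too. Of the 4 called lower, 3 had one called lower. Over the 133 coding genes tested, 24 were called higher and 3 lower, against 10.4% and 13.8% of all genes. The 32 and the 4 include 11 and 3 that entered through the group in which they are high.

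**Figure D5:**
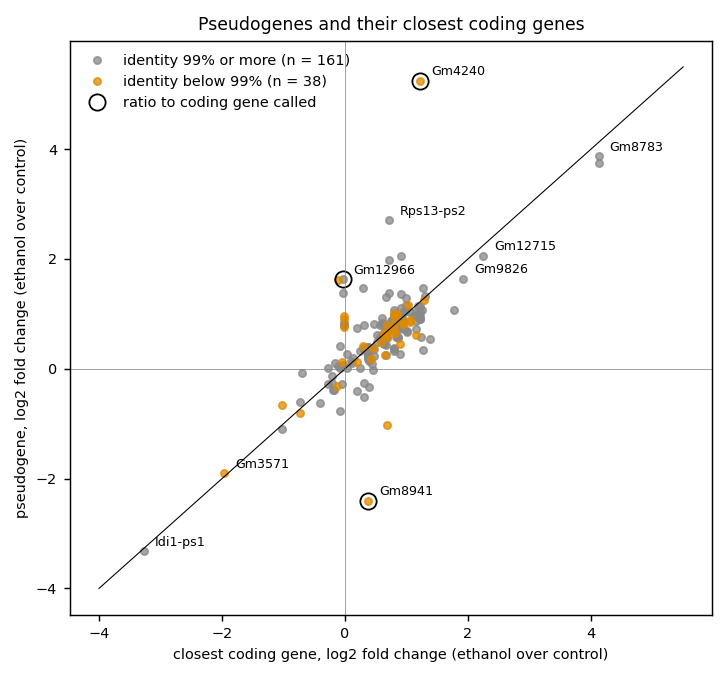
Log2 fold change (ethanol over control) of 199 pseudogenes, vertical axis, against that of their coding gene, horizontal axis, coloured by identity, with the line of equal change. Most points lie along the line from Idi1-ps1 to Gm8783, and the 3 with a called ratio, circled, lie off it.

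Together, the 200 took 0.393%, 0.397% and 0.371% of all counts in ethanol livers and 0.445%, 0.444% and 0.430% in control livers. The groups did not overlap, and the means were 0.387% ± 0.0139 and 0.440% ± 0.00827 (SD, n = 3 each, exact permutation test, two-sided, p = 0.1, the smallest possible). The 95% Wilson interval of each share was within 0.00167 percentage points, which covers counting error only. Without the 1000 most abundant genes in numerator and denominator the order turned, with 1.60% in ethanol and 1.24% in control livers. The 85 ribosomal copies took 0.110% ± 0.00624 in ethanol and 0.0984% ± 0.00481 in control livers (SD, n = 3 each, exact permutation test, two-sided, p = 0.2). The 200 held 85.5% and 84.4% of all counts on processed pseudogenes in the groups.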

How the data were processed

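The authors deposited, for each gene and library, a whole-number count that was not normalized, and an FPKM value scaled by transcript length and library size. Reads were paired-end from total liver RNA. Adaptors, poor reads and ambiguous bases had been removed. The aligner and the counter are not given in the sources used here. The submitters' processing notes name GRCm38 (mm10), but only 539 of 27049 genes shared with GENCODE M21 have the same start and end there, so gene coordinates follow the deposited table, while printed sequences have GRCm38 positions. The table held 1 count column of no library, which was not used.

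Members, lists and tests were chosen with earlier results of these data known. FPKM served for levels. Counts were filtered with filterByExpr, scaled by TMM and tested with edgeR 4.0.16 (R 4.3.3) without covariates, adjusting over all 16717 genes. Ratios were tested with limma 3.58.1 on log2 of counts plus 0.5. Both tests were checked on simulated data. Sequences were matched with blastn 2.17.0. The median SE of a log2 fold change was 0.257, at 3 mice per group and 60514417 to 74210869 counts per library. Described by name are the 10 highest in FPKM, the 10 largest rises and falls called with groups that do not overlap, the top 2 per named class, those at the edge of the selection and those with a called ratio. Others named were chosen after their values were seen. DESeq2 1.42.0, limma on log2(FPKM + 1) and on log2(FPKM + 0.1), other scalings, no filter, a block and leaving out libraries were tried.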

Additional observations from a re-analysis of the deposited data

How the results depend on the processing

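With library size alone, 6 pseudogenes were called higher and 13 lower, with a median log2 fold change of -0.0276 (all genes 5.06% and 32.2%). limma on log2(FPKM + 1) gave 6, 12 and -0.0431 (all genes 2.44% and 10.2%), and on log2(FPKM + 0.1) 6, 15 and -0.0460 (4.4% and 29.7%). With the length trend removed, 16 were higher (all genes 12.5%) and the median was 0.46. The top 100 gave 14 higher and 1 lower (all genes 10.4% and 13.8%). Ranking by control libraries gave 21, 7 and a median of 0.52, and by ethanol libraries 39, 1 and a median of 0.73. The shares over all genes were the same 10.4% and 13.8%. Ranking by 1 group favours pseudogenes that are high in it, so these counts are in part selected. At adjusted p alone, 114 were higher and 8 lower (all genes 21.5% each). Leaving out single libraries gave 26 to 36 higher, 3 to 5 lower and medians of 0.59 to 0.69. Of all genes, 8.57% to 10.9% were then called higher and 9.88% to 16.5% lower. Ratios called ranged from 0 to 2 for coding genes by name and 0 to 4 by sequence, the last reached without ethanol replicate 2 or 3. FPKM ratios called 9 by sequence. Without the 1000 most abundant genes, the ethanol minus control difference in share was 0.359 percentage points, against -0.0526. With the replicate block, 32 were higher (29 of them among the 32 without it), 4 lower and 0 ratios called. Of all genes, 9.08% were then called higher and 12.0% lower. Over all genes, same-numbered libraries did not deviate together (correlations -0.035 to -0.017). No pairing by number was thus seen, though a correlation over all genes with 3 libraries per group cannot exclude one. Of the 34 pseudogenes named by rule, 16 were called, and these stayed called in 192 of 224 settings and lost the call in 32. Gm10123 gained one in 1 setting, and 0 turned the direction of a call. In those cases the cause was not tested. Counts were lowest for Gm4240, at 13 in a control library.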
